A study of Mus musculus with 22 samples.

Results

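Aortas of mice lacking estrogen receptor beta (ERbKO) were compared with aortas of wild-type (WT) mice, both without added estrogen, across the whole Affymetrix mouse array. The comparison holds 8 arrays of the 22 in the series, 3 ERbKO placebo arrays and 5 WT placebo arrays, taken by their titles. All mice were C57BL/6 females aged 2.5 to 4.5 months whose ovaries had been removed, and each carried a placebo pellet for 7 to 8 days before the aorta was taken. Further mice served for comparison here, namely 3 ERbKO and 5 WT mice with 17beta-estradiol (E2) pellets and 3 mice lacking estrogen receptor alpha (ERaKO) with placebo pellets. Each array held RNA of 1 aorta, without pooling, from 5 ug of total RNA. The WT mice were littermates of both knockout lines, and the labels do not say which WT mouse belonged to which line. The allele of each knockout, and the exon it removes, are not given in the sources used here.

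Estrogen receptor beta, encoded by Esr2, is a nuclear receptor that binds DNA as a dimer and turns transcription of its target genes up or down when estrogen is bound. It shares its DNA element and many coregulators with estrogen receptor alpha, encoded by Esr1, and both are found in smooth muscle and endothelial cells of vessels. Mice without estrogen receptor beta are known for high blood pressure and for altered ion channel currents in arterial smooth muscle. After removal of the ovaries, a placebo pellet leaves little estrogen, so this comparison asked what the absence of the receptor does when its main ligand is scarce.

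Values are log2 signals made by the authors with GCRMA, a method that subtracts a sequence-dependent background and normalises arrays together. A probe set is the group of probes that together give a transcript's signal, and 20410 of 45101 were tested, those over a log2 value of 4 on at least 3 of the 22 arrays. They stand for 10260 named genes. A call is an adjusted p under 0.05 in limma, with Benjamini-Hochberg adjustment over all tested probe sets and 1 shared fit of the 22 arrays. Errors beside a log2 difference (ERbKO minus WT) are standard errors of that fit.

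The 8 arrays correlated with each other with r between 0.894 and 0.986, and 18452 to 18775 probe sets per array were over the value of 4. Smooth muscle markers were high on all 8 arrays, with Acta2 between 14.10 and 14.51 in ERbKO and between 13.95 and 14.42 in WT. Brown fat markers were high as well, with Ucp1 between 12.13 and 13.37 in ERbKO and between 12.48 and 14.07 in WT. In such bulk tissue, fewer cells of a type and less RNA per cell cannot be told apart. A pair of WT arrays stood apart. WT placebo 1 carried striated muscle transcripts, with Acta1, skeletal muscle actin, at 10.09 against 4.07 to 4.23 on the other 4 WT arrays. WT placebo 4 had the lowest value of the 8 arrays in 16 of 34 gene lists and the highest in 10, with high fat and low smooth muscle and matrix lists. List medians and counts that change most without these arrays are given with and without them.

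Esr2 itself was measured by 1 probe set (1426103_a_at), which did not pass the filter. Its log2 values were 2.48, 2.72 and 2.51 on the ERbKO arrays and 2.36, 2.37, 2.43, 2.37 and 2.37 on the WT arrays. The knockout arrays were the higher ones, by 0.19, with p = 0.0179 in a two-sided exact permutation test over 56 splits, the smallest p this design can give. All these values lie under the filter value of 4, and whether the probe set covers the deleted part is not known, so Esr2 gives no check of the labels here. Esr1, by contrast, was well measured, at 8.85, 8.42 and 9.01 on the ERbKO arrays and at 8.39, 8.79, 8.63, 8.04 and 8.75 on the WT arrays. The groups overlapped and Esr1 differed by 0.24 ± 0.36 (adjusted p = 0.994).

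With placebo, ERbKO and WT aortas differed in 1 called probe set of 20410 (0.0049%), which was lower in ERbKO, and in no named gene. At an unadjusted p under 0.05 there were 620 probe sets (3.04%), of which 280 were higher (1.37%) and 340 lower (1.67%). That number rested on single arrays, and was 1551 without ERbKO placebo 1, 226 without ERbKO placebo 2, 245 without ERbKO placebo 3, 1360 without WT placebo 3, 400 without WT placebo 1 and 4 together, and 3304 with array weights. With the mean of a gene list as covariate it was 306 for brown adipocyte, 600 for white adipocyte and 455 for striated muscle genes. Among named genes, 310 of 10260 (3.02%) were at such a p, 124 higher (1.21%) and 186 lower (1.81%). The median difference over named genes was -0.02. With genotype and replicate number as a random replicate block, 2 probe sets were called. In limma no probe set was called with only the 8 arrays in the fit (smallest adjusted p = 0.634), with no filter (0.265), with a fixed replicate block (0.180), without WT placebo 1 and 4 (0.140) or with robust eBayes (0.0515). In size, 272 probe sets differed by more than 1 on the log2 scale, 89 higher and 183 lower.

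The called probe set, 1457231_at, carries no gene symbol in the array annotation. It read 3.44, 4.01 and 4.20 on the ERbKO arrays and 6.34, 6.13, 6.58, 5.87 and 7.19 on the WT arrays. Every ERbKO value was below every WT value, and all ERbKO values lay near the filter value of 4, with ERbKO placebo 1 under it. The difference was -2.54 ± 0.38 (adjusted p = 0.0485). Without WT placebo 1, 3 or 5, or without any single ERbKO array, its adjusted p was 0.123 to 0.180, while the difference stayed between -2.70 and -2.32.

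Another pair of probe sets without a single symbol led the rest of that kind by p. Signals of 1444982_at were 3.50, 4.09 and 2.73 on the ERbKO arrays and 6.28, 5.71, 7.06, 6.60 and 7.38 on the WT arrays, a difference of -3.16 ± 0.52 (adjusted p = 0.0693, and 0.0338 with the random replicate block). In the other direction, 1441181_at read 5.71, 6.23 and 5.47 on the ERbKO arrays and 4.09, 4.44, 4.78, 4.50 and 4.37 on the WT arrays, a difference of 1.37 ± 0.25 (adjusted p = 0.160). In both, the 3 ERbKO arrays lay entirely on one side of the 5 WT arrays. Of the ERbKO values of 1444982_at, 3.50 and 2.73 lay under the filter value and 4.09 just over it. It passed the filter through the groups where it is high, and the size of its difference rests on values near that floor. It was called in 8 of its 24 alternatives, and 1441181_at in 0 of 23.

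Since no named gene was called, the 5 genes with the smallest p in each direction are given as values. The lower ones were Sntg2, Adi1, Twist2, Tshz2 and Colec11, and in all 5 the ERbKO arrays lay below the WT arrays. Of these, Sntg2, Adi1 and Colec11 lie on chromosome 12, which also carries Esr2. Over all tested probe sets, the arrays of the groups did not overlap in 177 that were lower (0.867%) and in 395 that were higher (1.94%).

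Sntg2 encodes syntrophin gamma 2, an adaptor that links membrane proteins to the dystrophin complex. It read 4.71, 3.92 and 5.20 on the ERbKO arrays and 6.43, 6.28, 6.17, 5.85 and 7.57 on the WT arrays. The difference was -1.85 ± 0.38 (adjusted p = 0.574). Colec11 encodes collectin 11, a secreted lectin of innate immunity that starts the lectin pathway of complement. Its log2 values were 3.38, 3.20 and 2.77 on the ERbKO arrays and 6.28, 4.49, 4.58, 5.12 and 6.06 on the WT arrays, a difference of -2.19 ± 0.57 (adjusted p = 0.994). All 3 ERbKO values of Colec11 were under the filter value of 4, and all 5 WT values were over it.

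Adi1, an enzyme of the methionine salvage pathway, was measured by 3 probe sets that disagreed. Probe set 1438758_at read 2.76, 3.09 and 5.22 on the ERbKO arrays and 6.00, 5.45, 5.57, 7.20 and 6.28 on the WT arrays, a difference of -2.41 ± 0.55 (adjusted p = 0.994). On ERbKO placebo 1 and 2 it lay under the filter value of 4, so the size of this difference rests in part on values below it. The other probe sets of Adi1 gave 0.43 ± 0.22 and -0.16 ± 0.24, so the lower signal was seen in 1 of the 3.

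Twist2, a transcription factor of mesenchymal cells, read 3.91, 3.18 and 3.67 on the ERbKO arrays and 4.20, 4.36, 4.74, 5.08 and 5.02 on the WT arrays (difference -1.10 ± 0.27, adjusted p = 0.994). All ERbKO values of Twist2 were under the filter value of 4, so the size of its difference rests on values below it. Tshz2, a zinc finger transcription factor, read 5.05, 4.32 and 4.39 on the ERbKO arrays and 5.70, 5.59, 5.16, 6.14 and 5.86 on the WT arrays (difference -1.11 ± 0.28, adjusted p = 0.994). In both genes the ERbKO and WT arrays lay apart but close, with ERbKO placebo 1 the nearest to the WT arrays.

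The 5 genes leading in the higher direction were Zfp3, Arhgap23, Eif2ak2, Mylk2 and Tppp3, with adjusted p = 0.994 each. Only Eif2ak2 had groups that did not overlap. Eif2ak2, the interferon-induced kinase PKR that senses double-stranded RNA, read 6.50, 6.74 and 6.37 on the ERbKO arrays and 5.73, 5.75, 6.29, 6.01 and 5.75 on the WT arrays (difference 0.63 ± 0.17), and its second probe set gave 0.44 ± 0.21. Zfp3, a zinc finger protein, was 4.84, 6.99 and 7.54 on the ERbKO arrays and between 4.46 and 4.90 on the WT arrays. Arhgap23 was 4.25, 5.52 and 5.59 on the ERbKO arrays and between 4.07 and 4.29 on the WT arrays. In Zfp3 and Arhgap23, ERbKO placebo 1 lay within the WT range and the other ERbKO arrays lay above it. Without ERbKO placebo 1, both were called higher, Zfp3 by 2.52 (adjusted p = 0.00364) and Arhgap23 by 1.40 (adjusted p = 0.0244). Leaving out the array that lay within the WT range separates the groups by construction, so these calls are no support for either gene. Only ERbKO placebo 2 and 3 remain there, and 1551 probe sets were at an unadjusted p under 0.05, against 620 on all arrays. The other probe set of Arhgap23 differed by -0.17 in the full comparison. Tppp3, a tubulin-binding protein, was 9.11, 9.99 and 10.18 on the ERbKO arrays and 8.52, 8.83, 9.60, 7.40 and 8.30 on the WT arrays, a difference of 1.23 ± 0.37 with WT placebo 3 inside the ERbKO range. Mylk2, a myosin light chain kinase of striated muscle, was 3.98, 4.35 and 5.02 on the ERbKO arrays and between 3.67 and 4.02 on the WT arrays (difference 0.66 ± 0.19).

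**Figure D1:**
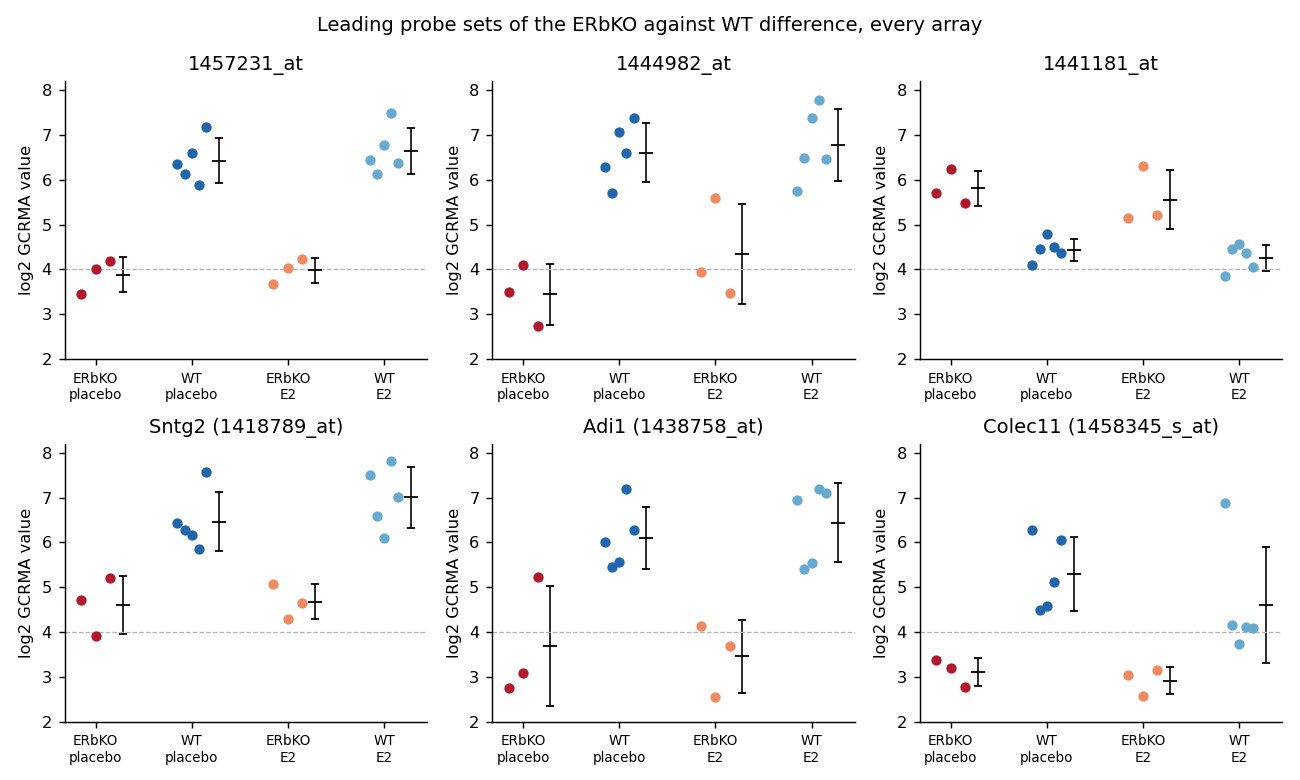
Log2 GCRMA values (vertical axis) on every array for 6 leading probe sets, with ERbKO placebo, WT placebo, ERbKO E2 and WT E2 along the horizontal axis. Each point is 1 array, the bar is the mean with its SD, and the dashed line is the filter value of 4. With placebo, the 3 ERbKO arrays lie outside the range of the 5 WT arrays in all 6 panels, above it for 1441181_at and below it for the others.

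Sntg2 and Colec11 lie within the same stretch of chromosome 12 and were both low in ERbKO, so the starts of these genes are shown. The sequences are from RefSeq (GRCm38.p6) and run from 250 bases before to 50 bases after the annotated start, 5′ to 3′ on the minus strand. Sntg2 is at chr12:30373327-30373626 and Colec11 at chr12:28623281-28623580. Of the 2 promoters listed for Sntg2, the first is shown.
Sntg2: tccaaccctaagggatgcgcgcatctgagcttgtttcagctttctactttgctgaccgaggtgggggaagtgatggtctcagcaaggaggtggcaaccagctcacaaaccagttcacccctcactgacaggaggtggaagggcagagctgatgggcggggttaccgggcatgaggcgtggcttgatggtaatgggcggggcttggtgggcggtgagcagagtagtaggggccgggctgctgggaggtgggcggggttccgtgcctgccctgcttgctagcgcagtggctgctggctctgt
Colec11: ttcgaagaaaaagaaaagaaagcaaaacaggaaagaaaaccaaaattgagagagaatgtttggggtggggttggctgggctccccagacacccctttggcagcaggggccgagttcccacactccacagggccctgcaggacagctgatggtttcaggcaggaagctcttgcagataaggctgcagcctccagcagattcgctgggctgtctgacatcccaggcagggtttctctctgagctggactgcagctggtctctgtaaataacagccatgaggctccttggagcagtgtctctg
An estrogen response element, to which dimers of either estrogen receptor bind, was searched for as GGTCA, any 3 bases and TGACC, and a single arm of it as AGGTCA, both on either strand. The full element need not hold the arm as written. Neither promoter shown holds either run of letters, so no base is in capitals. Of 27025 genes with a listed promoter, 20 (0.074%) hold the full element and 4900 (18.1%) the arm. Promoters were listed for 6 of the 10 leading genes, and 0 of the 6 hold either in any listed promoter.

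Chromosome 12 was then followed from Esr2 outwards, by the order of its protein-coding genes in the RefSeq annotation. Among 58 tested genes within the 50 protein-coding genes on either side of Esr2, 1 was higher and 3 were lower, counted at p under 0.05 without adjustment (6.9%). Within 100 genes on either side it was again 1 higher and 3 lower, of 112 (3.57%), and on the rest of the chromosome 4 higher and 7 lower, of 236 (4.66%). Among named genes off these 348, 119 were higher and 176 lower (2.98% of 9912). None of the genes of chromosome 12 was called, and by share of such genes chromosomes 13 (4.58%) and 11 (4.43%) came before chromosome 12 (4.16% of 361 genes of all types).

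The higher gene near Esr2 was Srsf5, a splicing factor 43 places after it, which differed by 0.72 ± 0.31 (unadjusted p = 0.0287) with groups that did not overlap. The 3 lower genes near Esr2, whose groups did overlap, were Syne2, which is its neighbour, Snapc1 and Akap5. Syne2 encodes nesprin-2, which ties the nuclear envelope to the cytoskeleton, and read 6.66, 6.89 and 6.27 on the ERbKO arrays and 7.25, 7.25, 7.03, 6.57 and 7.20 on the WT arrays. It differed by -0.46 ± 0.21 (unadjusted p = 0.0379), with WT placebo 4 inside the ERbKO range. Snapc1, a subunit of the complex that transcribes small nuclear RNA genes, lies 11 places before Esr2 and differed by -0.45 ± 0.21. Akap5, which anchors protein kinase A, lies 3 places after it and differed by -0.76 ± 0.28. With E2, Syne2 differed by -0.86 (unadjusted p = 4.89e-04) and Snapc1 by -0.50 (unadjusted p = 0.0255). Akap5 differed there by -0.32 (unadjusted p = 0.280) and Srsf5 by 0.47 (unadjusted p = 0.140).

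By the brightest probe set of each gene, Colec11, Sntg2 and Rnf144a had the lowest differences on the chromosome and lay farther off. Next came Nubpl, between these genes and Esr2, which differed by -1.28 ± 0.45 (unadjusted p = 0.0099) with groups that overlapped. Rnf144a, Colec11, Adi1 and Sntg2 stand 206, 200, 197 and 190 places before Esr2, in a stretch of 11 tested genes, where Adi1 was low by 1438758_at only. Rnf144a, an E3 ubiquitin ligase, read 6.66, 3.94 and 5.05 on the ERbKO arrays and 6.29, 6.91, 5.44, 7.91 and 6.79 on the WT arrays. The groups overlapped, and the difference was -1.45 ± 0.63 (unadjusted p = 0.0321). Of the 11 genes, Rnf144a, Colec11 and Sntg2 were at an unadjusted p under 0.05, all lower. The 8 between or beside them, Adi1 by its brightest probe set among them, differed by -0.40 to 0.57. The stretch was drawn from Rnf144a to Sntg2 after their values were seen, so its ends were low by choice. Its count is a description only. Over all named genes, 186 of 10260 (1.81%) were lower at such a p. Iah1, an esterase that stands 231 places before Esr2, read 7.27, 7.07 and 7.35 on the ERbKO arrays and 7.63, 7.87, 7.65, 8.36 and 8.09 on the WT arrays. Its groups did not overlap by this probe set (-0.69 ± 0.20, adjusted p = 0.994), and the second probe set gave -0.33 ± 0.16. With E2 these probe sets of Iah1 differed by -0.46 and -0.57.

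**Figure D2:**
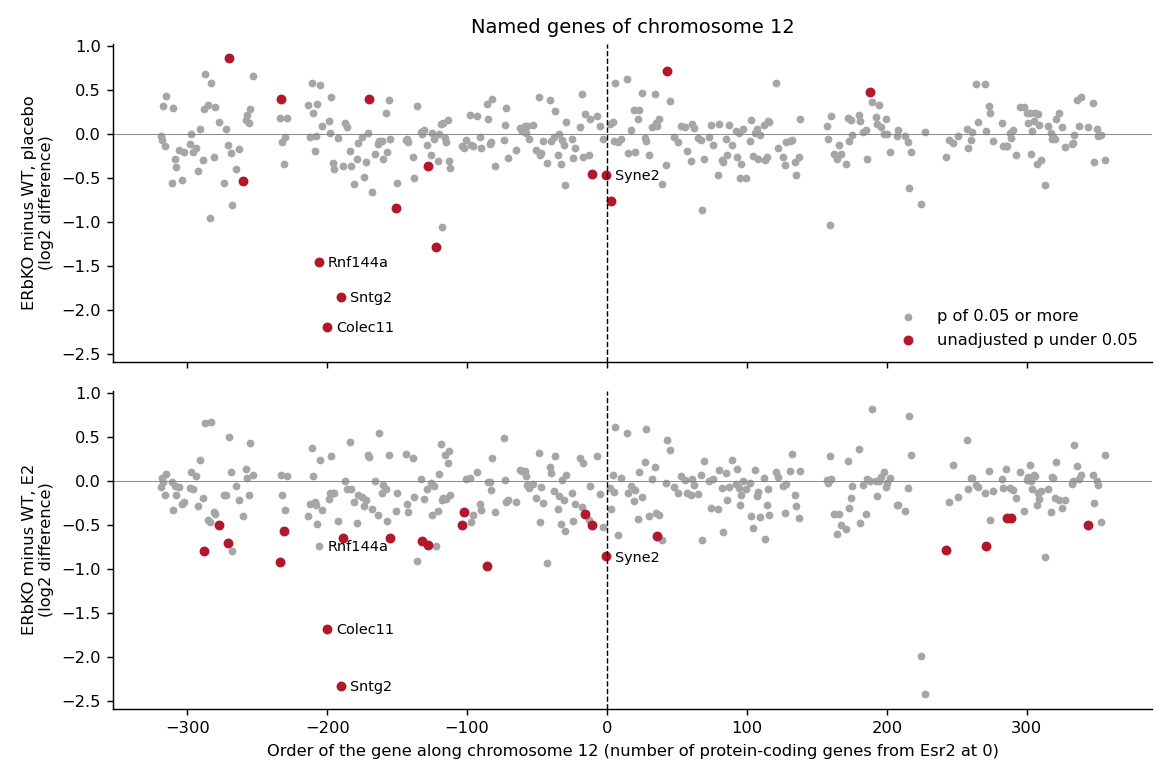
Log2 difference of ERbKO minus WT (vertical axis) with placebo above and with E2 below, for the named genes of chromosome 12 in their order from Esr2 at 0 (horizontal axis, number of protein-coding genes). Red points are at an unadjusted p under 0.05. Rnf144a, Colec11 and Sntg2 lie 206, 200 and 190 places before Esr2, and Colec11 and Sntg2 are the lowest red points in both panels.

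The same genotype difference was measured again with E2 in 3 ERbKO and 5 WT arrays that share none with the placebo comparison. It too gave 1 call among 20410 (0.0049%), and it was the same probe set, although both calls share the variances of the fit of 22 arrays. With only its own arrays, with no filter or with a fixed replicate block, the E2 comparison had no call in limma (smallest adjusted p = 0.297, 0.149 and 0.102), with 1209, 1723 and 1539 probe sets at an unadjusted p under 0.05. On the E2 arrays, 1457231_at read 3.68, 4.02 and 4.24 in ERbKO and 6.44, 6.12, 6.77, 7.48 and 6.38 in WT, a difference of -2.66 ± 0.38 (adjusted p = 0.0256). Sntg2 was 5.07, 4.30 and 4.65 in ERbKO and 7.51, 6.58, 6.10, 7.81 and 7.01 in WT (-2.33 ± 0.38, adjusted p = 0.0730). Groups separated here as they had with placebo. Adi1 (1438758_at) differed by -2.98 ± 0.55, with ERbKO E2 2 and 3 at 2.55 and 3.69, under the filter value of 4. Its other probe sets differed by -0.72 (unadjusted p = 0.00679) and 0.28 (unadjusted p = 0.221). Probe set 1444982_at differed by -2.44 ± 0.52 and 1441181_at by 1.29 ± 0.25. Colec11 differed by -1.68 ± 0.57, with 4 WT arrays between 3.74 and 4.17 and WT E2 1 at 6.88.

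Other leading genes had smaller differences with E2. Twist2 differed by -0.35 ± 0.27, Tshz2 by -0.39 ± 0.28, Eif2ak2 by 0.06 ± 0.17, Zfp3 by 0.11 ± 0.42 and Arhgap23 by -0.22 ± 0.25. Of the 10 leading genes, 9 had the same sign with E2, and 3 were also at an unadjusted p under 0.05 (Sntg2, Adi1 and Colec11), as were 1172 probe sets (5.74%) in that comparison.

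Across the 620 probe sets at an unadjusted p under 0.05 with placebo, 517 (83.4%) had the same sign with E2, against 63.1% of all tested. The lists shared 101 probe sets of the same sign, 16.3% of the placebo list and 8.62% of the E2 list, and 5 of opposite sign. The differences correlated with r = 0.44 across the 20410 probe sets. That figure is a description, since probe sets are not independent and placebo and E2 arrays of the same number deviated together within a genotype, with r of 0.246 to 0.661 in ERbKO and 0.309 to 0.605 in WT.

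The test of the difference between the placebo and the E2 comparison gave 0 calls in limma, and 261 probe sets were at an unadjusted p under 0.05 (1.28%). For 1457231_at it was 0.12 ± 0.54 and for Sntg2 0.48 ± 0.54. The mean of the placebo and E2 differences, a contrast added after these values were seen, called 5 probe sets (0.0245%). They were 1457231_at (-2.60 ± 0.27, adjusted p = 1.93e-04), 1444982_at (-2.80 ± 0.37, adjusted p = 0.00164), 1441181_at (1.33 ± 0.18, adjusted p = 0.00164), Sntg2 (-2.09 ± 0.27, adjusted p = 0.00164) and Adi1 by probe set 1438758_at (-2.70 ± 0.39, adjusted p = 0.00552). This contrast holds the placebo arrays already described, so it is not independent of the placebo comparison. The errors and p-values above treat same-numbered placebo and E2 arrays as independent, while their correlation within a genotype was estimated at 0.405. With genotype and number as a random replicate block the contrast called the same 5, with a smallest adjusted p in limma of 0.00291. With only the arrays of these 4 groups in the fit it called 5 as well, of which 4 were shared and Adi1 was not, and with a fixed replicate block it called 3, without Sntg2 and Adi1.

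**Figure D3:**
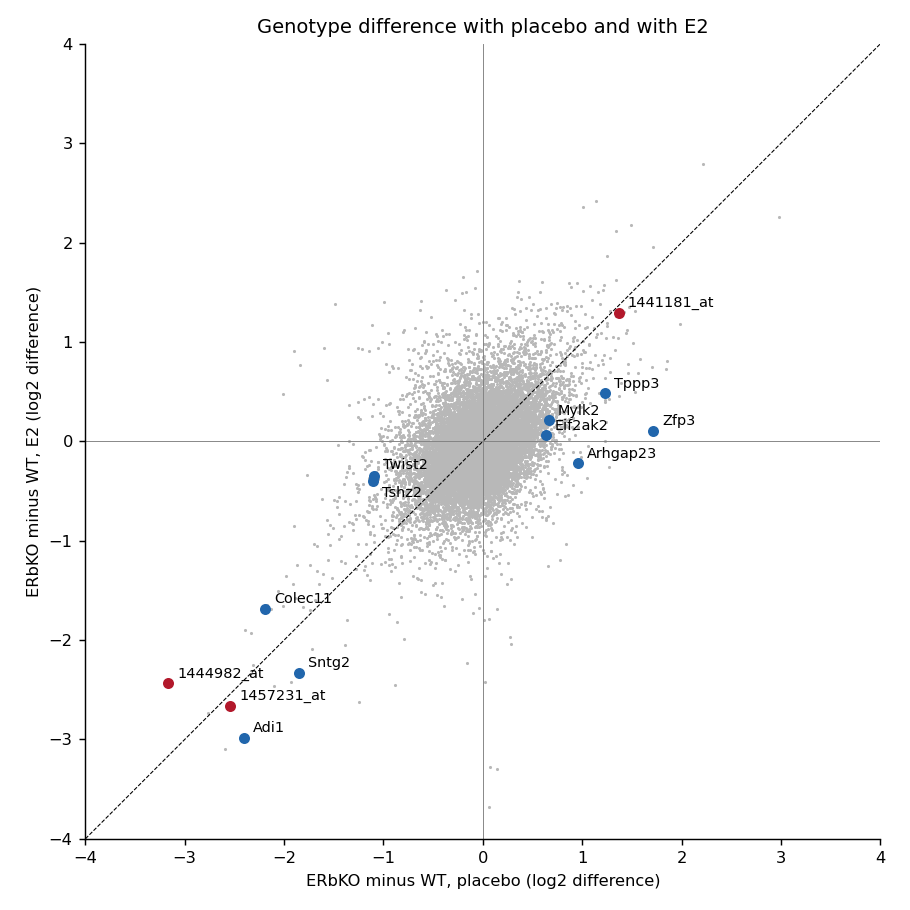
Log2 difference of ERbKO minus WT with placebo (horizontal axis) and with E2 (vertical axis) for 20410 probe sets, in grey, with the leading genes in blue and the leading probe sets without a single symbol in red. On the dashed line both differences are equal. Sntg2, Adi1 and Colec11 and the 3 red probe sets lie far from 0 on both axes, while Zfp3 and Arhgap23 lie near 0 on the vertical one.

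Set against ERaKO aortas with placebo, a contrast in which the WT arrays enter through the shared variances and the filter, ERbKO aortas differed in 7 called probe sets of 20410 (0.0343%), 3 higher and 4 lower. With only the arrays of these groups, limma called none (smallest adjusted p = 0.0897, with 2873 at an unadjusted p under 0.05). The largest was Esr1 (1460591_at), at 8.85, 8.42 and 9.01 in ERbKO and at 5.50, 5.36 and 4.21 in ERaKO, a difference of 3.74 ± 0.40 (adjusted p = 2.78e-04). A second Esr1 probe set (1435663_at) differed by 2.41 ± 0.38 (adjusted p = 0.0250). Esr1 is the gene targeted in ERaKO mice. Here too the leading unnamed probe sets passed. ERaKO arrays read 5.98, 7.62 and 6.77 for 1457231_at, all above the ERbKO arrays, and the difference was -2.91 ± 0.43 (adjusted p = 0.0175). For 1444982_at the difference was -3.48 ± 0.58 (adjusted p = 0.0348) and for 1441181_at 1.59 ± 0.28 (adjusted p = 0.0436).

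Sntg2 read 6.68, 7.25 and 6.71 in ERaKO and differed by -2.27 ± 0.43 (ERbKO minus ERaKO), which missed the threshold (adjusted p = 0.0845). Acvrl1, the TGF-beta family receptor ALK1 of endothelial cells, was called. Its values were 5.53, 5.52 and 5.87 in ERbKO, 7.08, 6.93 and 7.07 in ERaKO, and 6.71, 5.70, 6.53, 6.28 and 6.82 in WT. It differed by -1.39 ± 0.23 in ERbKO against ERaKO (adjusted p = 0.0348) and by -0.77 ± 0.21 in ERbKO against WT (adjusted p = 0.994), where the other probe set of Acvrl1 gave 0.13. The last call was Ocel1, at 2.92, 2.56 and 2.83 in ERbKO and 4.85, 4.09 and 4.92 in ERaKO (-1.85 ± 0.32, adjusted p = 0.0436), where the ERbKO values lay under the filter value, so that the size of this difference rests on values below it. ERaKO against WT, which shares the WT placebo arrays, had 1 called probe set (0.0049%). There 1457231_at differed by 0.37, 1444982_at by 0.32, 1441181_at by -0.22 and Sntg2 by 0.42, none of them called.

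Across 34 gene lists, no member was called in ERbKO against WT with placebo. Of 727 distinct genes tested, each counted once over all lists, 10 higher ones and 16 lower ones had an unadjusted p under 0.05 (3.58%), close to the 3.02% of all named genes. List medians ran from -1.38 to 0.43, where the median of all named genes was -0.02, and in no list did the array means of the groups separate.

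Among estrogen receptors, related receptors and coregulators, 19 of 24 were tested, with a median of -0.02 and 1 lower. That gene was Esrrg, an orphan receptor that drives genes of oxidative metabolism, at 4.34, 3.20 and 3.69 in ERbKO and 5.61, 5.45, 3.71, 6.29 and 4.47 in WT (-1.36 ± 0.47). ERbKO placebo 2 and 3 and WT placebo 3 lay under the filter value of 4, so this size rests in part on values below it. WT placebo 4 was the highest array for Esrrg. Of the estrogen-responsive list, 15 of 26 were tested, with a median of -0.05 and 2 lower, Igfbp3 and Agtr1a. Its median was -0.27 without WT placebo 4, and 0 were lower without WT placebo 1. Pgr, the progesterone receptor and a classical estrogen target, was 7.31, 7.87 and 7.82 in ERbKO and 7.65, 7.46, 7.88, 6.53 and 8.89 in WT, a difference of -0.02 ± 0.37 that was 0.00638 after quantile normalisation and 0.0479 after centring each array on its median.

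Vasoactive signalling and ion channels set the tone of the vessel. Of 22 vasoactive genes tested, 0 were higher and 2 lower, with a median of 0.04, which was -0.09 with 1 lower without WT placebo 4. Ednrb, the endothelin B receptor, was 6.77, 5.36 and 5.81 in ERbKO and 7.13, 7.18, 6.40, 7.47 and 6.31 in WT (-0.92 ± 0.37). Agtr1a, the angiotensin II receptor type 1a, was 5.46, 4.89 and 5.10 in ERbKO and 6.55, 6.16, 5.42, 5.41 and 5.94 in WT (-0.75 ± 0.34). Both sets of arrays overlapped. Nos3, the nitric oxide synthase of endothelium, was 7.13, 6.56 and 6.57 in ERbKO and 7.00, 7.07, 6.94, 7.63 and 6.92 in WT (-0.36 ± 0.27).

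In the list of potassium and calcium channels, 2 of 24 were higher and 1 lower, with a median of 0.19. Without WT placebo 4 the median was 0.09 with 0 higher and 0 lower, and with E2 it was -0.03. Kcnmb1, also in the smooth muscle list, is the beta subunit that tunes the large-conductance calcium-activated potassium channel of smooth muscle. It read 8.73, 9.05 and 8.76 in ERbKO and 8.68, 8.44, 8.09, 7.36 and 8.46 in WT (0.64 ± 0.29). The groups did not overlap, although WT placebo 1 came close to the lowest ERbKO array. Kcnab1, a beta subunit of voltage-gated potassium channels, had the largest difference of the list. It read 9.80, 10.27 and 10.23 in ERbKO and 7.20, 9.95, 9.98, 6.04 and 7.42 in WT, a difference of 1.99 ± 0.76 (unadjusted p = 0.0170), and a second probe set gave 2.99 ± 1.14. WT placebo 2 and 3 lay within the ERbKO range, and the other 3 WT arrays lay far below it. With E2 the WT arrays split by number in the same way, at 7.81, 10.50, 10.41, 8.07 and 8.04, against 10.08, 10.36 and 9.98 in ERbKO, and ERaKO placebo arrays were at 6.78, 7.63 and 7.39. Itpr2, an IP3 receptor that releases stored calcium, was the lower gene (-1.06 ± 0.49).

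Smooth muscle genes had a median of 0.34 with 3 of 29 higher and 0 lower, and 25 of 29 differences were positive. Actg2, the gamma actin of smooth muscle, was 9.53, 9.98 and 9.97 in ERbKO and 9.31, 9.21, 9.41, 7.91 and 9.13 in WT (0.83 ± 0.35), with no overlap. Ppp1r14a, an inhibitor of myosin phosphatase, was 10.30, 11.11 and 10.77 in ERbKO and 10.01, 9.99, 10.61, 8.67 and 10.48 in WT (0.78 ± 0.37). Myh11, smooth muscle myosin, was 13.44, 13.62 and 13.68 in ERbKO and 13.33, 13.20, 13.50, 12.19 and 13.40 in WT (0.46 ± 0.23). In each of these genes WT placebo 4 was the lowest array, and without it the median of the list was 0.11, with 0 genes at such a p. With E2 the median was 0.02. In ERaKO against WT with placebo it was 0.29, and in ERbKO against ERaKO 0.11.

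Casq1, a calcium-storing protein of the sarcoplasmic reticulum, is listed with striated muscle, and it was the positive member of that list. Its values were 8.52, 8.89 and 8.88 in ERbKO and 8.11, 8.18, 8.21, 6.68 and 8.12 in WT (0.90 ± 0.31, unadjusted p = 0.00844), with no overlap. With E2 it differed by -0.11 ± 0.31, and the test between the comparisons gave 1.01 ± 0.44 (unadjusted p = 0.0312).

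Endothelial genes had a median of -0.04, with 0 of 24 higher and 1 lower, and 0 lower without WT placebo 4. Pecam1, an endothelial adhesion molecule, differed by 0.58 ± 0.46, with ERbKO at 8.87, 9.51 and 9.60 and WT at 9.40, 9.18, 9.18, 8.56 and 7.43. Kdr, the main VEGF receptor, was the lower one (-1.40 ± 0.62), with ERbKO at 4.31, 3.36 and 2.85 and WT at 4.35, 5.58, 3.32, 6.78 and 4.48. Most of the Kdr values lie near the filter value, and WT placebo 4 was the highest.

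Matrix genes had a median of 0.15, with 0 of 50 at such a p in either direction, and of -0.02 without WT placebo 4. Mmp14, a membrane-bound matrix protease, had groups that did not overlap, at 6.86, 6.94 and 6.90 in ERbKO and 7.00, 7.31, 7.26, 7.01 and 7.70 in WT (-0.36 ± 0.18). Fibroblast markers had a median of -0.18 with 1 lower, and of -0.34 with 3 lower without WT placebo 4. Pdgfra, a growth factor receptor of adventitial fibroblasts, was 9.59, 9.20 and 8.71 in ERbKO and 9.92, 9.53, 8.91 and 9.89 on WT placebo 2 to 5, with WT placebo 1 the highest (-0.48 ± 0.23, unadjusted p = 0.0499). With E2 Pdgfra differed by -0.66 ± 0.23.

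Growth factor pathways held single genes of either sign. In BMP and TGF-beta signalling, 1 of 27 was higher, Smad6, an inhibitor of BMP signals (0.76 ± 0.30). In Wnt signalling 1 of 20 was higher, Sost, the secreted inhibitor sclerostin. Sost read 11.74, 12.22 and 12.27 in ERbKO and 11.84, 11.17, 12.21, 10.35 and 10.56 in WT (0.85 ± 0.40, unadjusted p = 0.0483), and its second probe set gave 1.49 ± 0.71. With E2 the difference of Sost was 1.32 ± 0.40, with ERbKO at 11.04, 10.40 and 11.07 and WT at 9.29, 10.27, 10.02, 9.77 and 8.25, where the arrays did not overlap. In the IGF axis, Igfbp2 was higher (1.08 ± 0.43) and Igfbp3 lower (-1.08 ± 0.44) among 11 genes. Both encode carriers of insulin-like growth factors, and both were near background on some arrays. Without WT placebo 4, 0 genes were higher in the BMP and TGF-beta, Wnt and IGF lists, and 2 were lower in the IGF list.

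Genes of energy metabolism mostly had negative differences (ERbKO minus WT), and few reached an unadjusted p under 0.05. All 71 tested genes of the electron transport chain had a negative difference, with a median of -0.33, and 1 was at an unadjusted p under 0.05. With E2 the median was -0.03, in ERaKO against WT with placebo it was 0.29, and in ERbKO against ERaKO -0.59. That list follows a group that the study itself chose on these samples, so its direction is not independent evidence. The gene was Ndufa5, a subunit of complex I, at 11.76, 10.90 and 10.87 in ERbKO and 11.98, 11.91, 11.15, 12.40 and 11.89 in WT (-0.69 ± 0.29). In the TCA cycle and fatty acid oxidation 34 of 35 were negative, with a median of -0.41 and 1 lower gene, the mitochondrial dehydrogenase Idh2 (-0.55 ± 0.25). The median of that list was -0.17 with 0 lower without WT placebo 4, and -0.08 with E2. Mitochondrial ribosomal proteins had a median of -0.24, with 50 of 60 negative and 1 lower gene, Mrps33 (-0.78 ± 0.34), and their median was -0.10 with 0 lower without WT placebo 4. Cytoplasmic ribosomal proteins had a median of 0.03, and of -0.06 without that array.

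Brown adipocyte genes had a median of -0.79, with 14 of 15 negative and 2 lower, Esrrg and Fabp3. With E2 their median was -0.09, in ERaKO against WT with placebo it was 0.31, and in ERbKO against ERaKO -1.06. Fabp3, a fatty acid carrier of oxidative tissue, was 10.36, 9.16 and 9.31 in ERbKO and 12.16, 10.65, 10.11, 11.72 and 9.51 in WT (-1.22 ± 0.53). The array means of the brown adipocyte list were 10.02, 8.31 and 9.04 in ERbKO and 9.78, 10.04, 9.07, 10.96 and 9.26 in WT. Those of the electron transport list were 11.86, 11.06 and 11.31 in ERbKO and 11.69, 11.98, 11.25, 12.33 and 11.46 in WT. In both lists ERbKO placebo 2 was the lowest array and WT placebo 4 the highest, and ERbKO placebo 1 lay among the upper WT arrays. The summed linear signal of the brown adipocyte list ran from 16601 to 42208 in ERbKO and from 24020 to 72617 in WT, and all 4 of its defining markers were over the value of 4 on all 8 arrays. Without WT placebo 1 and 4 the median of brown adipocyte genes was -0.37 and that of electron transport -0.13. The part of fat content in these differences was not tested.

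Striated muscle genes had the lowest median, -1.38, with 14 of 15 negative, and WT placebo 1 stood apart in it. The array means of the list were 6.08, 5.62 and 5.57 in ERbKO and 10.11, 5.99, 6.54, 6.81 and 5.89 in WT. Tnni3, the troponin I of heart muscle, was 4.97, 4.40 and 4.06 in ERbKO and 12.06, 5.11, 7.32, 6.49 and 5.25 in WT. Without WT placebo 1 the median was -0.49, and without WT placebo 1 and 4 it was -0.28. Of the defining skeletal markers, Ckm, Myh4 and Tnnt3 were at or under 4 on all 8 arrays. With E2 the median was -1.25.

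**Figure D4:**
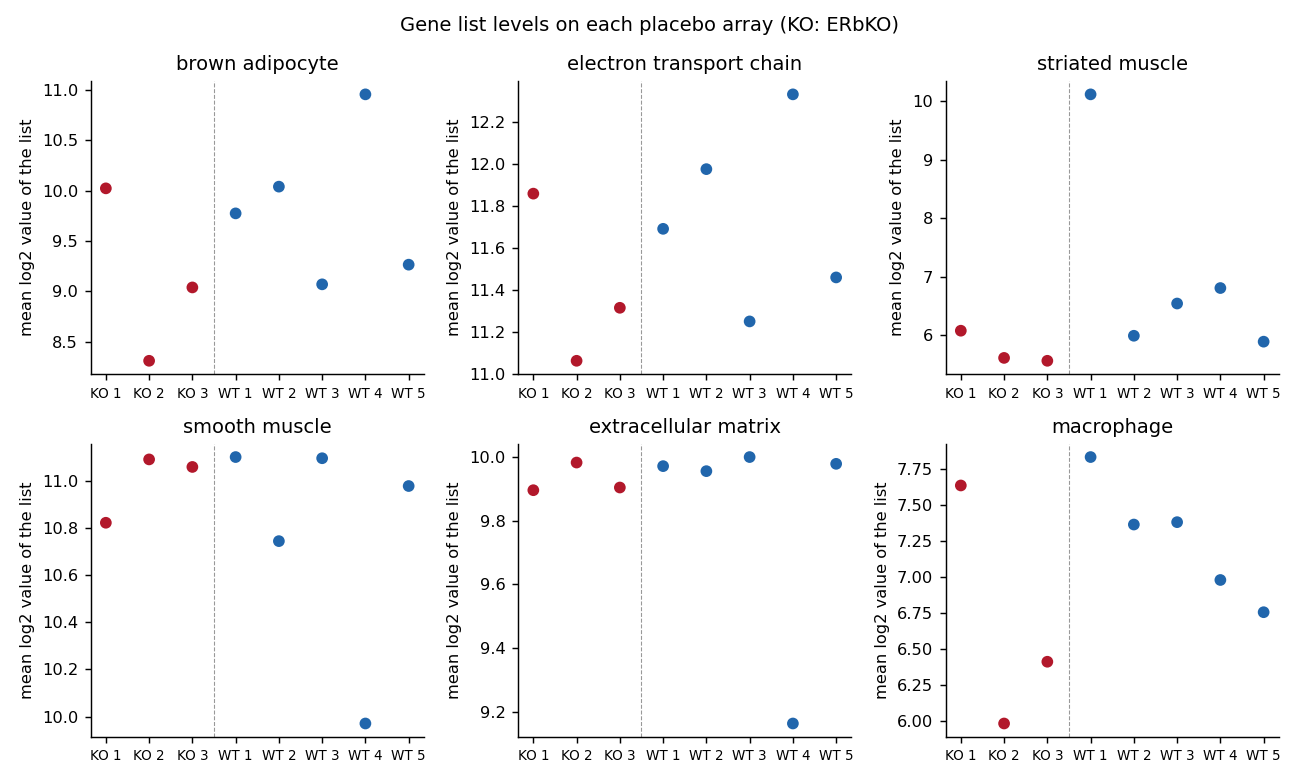
Mean log2 value of 6 gene lists (vertical axes, each with its own range) on the 3 ERbKO placebo arrays (KO, red) and the 5 WT placebo arrays (blue) along the horizontal axis. WT 1 stands at 10.11 in striated muscle, and WT 4 is the highest array in brown adipocyte and electron transport genes and the lowest in smooth muscle and matrix genes. The groups overlap in every panel.

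Macrophage genes had negative differences in all 14 tested members, with a median of -0.58, and 1 of them, Csf1r, was at an unadjusted p under 0.05. Csf1r, the receptor that macrophages need for survival, was 9.12, 7.58 and 7.93 in ERbKO and 9.03, 9.14, 9.02, 8.90 and 9.27 in WT (-0.86 ± 0.30, unadjusted p = 0.00989). ERbKO placebo 1 lay within the WT range and the other ERbKO arrays lay below it. The array means of the list were 7.64, 5.98 and 6.41 in ERbKO and 7.84, 7.37, 7.38, 6.98 and 6.76 in WT. The median was -1.03 without ERbKO placebo 1, -0.38 without WT placebo 1, and -0.42 without WT placebo 1 and 4. The marker Cd68 was under the value of 4 on all 8 arrays. With E2 the median was -0.19. In ERaKO against WT with placebo it was -0.40, and in ERbKO against ERaKO -0.11.

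Interferon-stimulated genes had a median of 0.14 and 1 of 17 higher. Ifit3, an antiviral protein, was 6.94, 8.25 and 6.84 in ERbKO and 6.37, 5.22, 7.20, 5.83 and 5.69 in WT (1.28 ± 0.48, unadjusted p = 0.0151). WT placebo 3 lay within the ERbKO range. Complement, chemokine and adhesion genes had a median of -0.10 and 0 of 13 at such a p, with a median of -0.36 without WT placebo 4.

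Clock genes had the highest median with placebo, 0.43, with 13 of 17 positive, and a median of 0.08 with E2. In ERaKO against WT with placebo, which shares the WT arrays, the median of the list was 0.42, and in ERbKO against ERaKO it was -0.14. Per2, a repressor of the clock, was 8.97, 9.55 and 9.68 in ERbKO and 9.25, 8.35, 9.04, 7.44 and 7.82 in WT (1.02 ± 0.45). Npas2, an activator of it, was 4.14, 4.10 and 4.27 in ERbKO and 4.87, 7.69, 4.16, 5.88 and 7.70 in WT (-1.89 ± 0.84). For Npas2 the ERbKO arrays lay together near the filter value, and the WT arrays were spread between 4.16 and 7.70. With E2 Per2 differed by 0.90 ± 0.45 and Npas2 by -1.58 ± 0.84.

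Heat shock and unfolded protein response genes held 3 lower of 22 (Bag3, Pdia6 and Dnajb1), with a median of -0.15. There were 0 lower without WT placebo 1 and 4 lower without WT placebo 4. Pdia6, a disulfide isomerase whose gene lies on chromosome 12, was 7.75, 7.74 and 8.01 in ERbKO and 8.48, 8.22, 8.19, 8.47 and 8.43 in WT (-0.53 ± 0.23), with no overlap. Dnajb1, a partner of HSP70, was 8.12, 7.62 and 8.19 in ERbKO and 8.74, 9.55, 8.93, 8.18 and 8.03 in WT. It differed by -0.71 ± 0.32 with placebo and by 0.78 with E2, and its second probe set by -0.50 with placebo and 0.87 with E2. The test of that change of direction had an unadjusted p of 0.00415 for Dnajb1, against 261 probe sets at under 0.05, and it was not called. The median of the list with E2 was 0.23.

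The remaining lists held no gene at such a p. These were antioxidant enzymes (0 of 34, median 0.02), NADPH oxidase subunits (0 of 5, median 0.05), proteasome subunits (0 of 31, median 0.03), cell cycle genes (0 of 18, median 0.03), immediate early genes (0 of 23, median -0.14), fatty acid synthesis (0 of 15, median -0.18) and cholesterol synthesis (0 of 15, median -0.04). White adipocyte genes had a median of -0.26 (0 of 16), with Adipoq, the fat hormone adiponectin, at 12.76, 11.14 and 11.90 in ERbKO and 11.68, 12.50, 11.72, 13.08 and 12.24 in WT. Without WT placebo 4 the medians of fatty acid synthesis (0.21) and cholesterol synthesis (0.15) were positive, that of cell cycle genes was -0.06, that of immediate early genes -0.42 and that of white adipocyte genes -0.01. At such a p, 3 cell cycle genes and 1 NADPH oxidase gene were higher without WT placebo 1. Markers of blood and nerve showed no called difference either. Erythroid genes had a median of 0.35 over 4 genes, lymphocyte genes 0.14 over 4, Schwann cell and neuronal genes -0.21 over 5, and mesothelial genes -0.15 over 5, each with 0 at such a p. In the absence of WT placebo 1, 1 lymphocyte gene was higher and 1 mesothelial gene lower, and without WT placebo 4 the mesothelial median was 0.32.

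**Figure D5:**
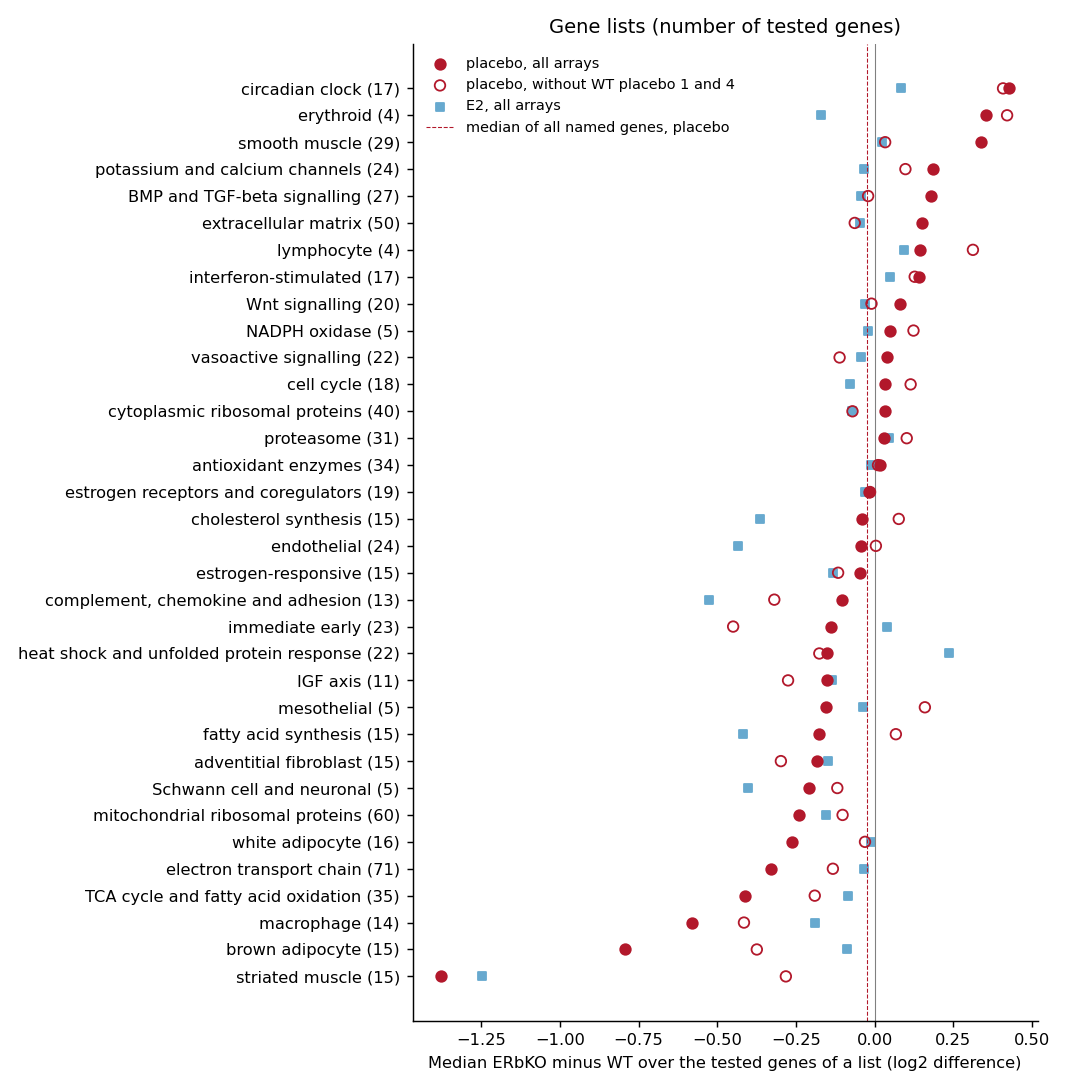
Median log2 difference of ERbKO minus WT (horizontal axis) over the tested genes of each of 34 lists (vertical axis, with the number of genes), with placebo on all arrays (filled red), with placebo without WT placebo 1 and 4 (open red) and with E2 (blue squares). The dashed line is the median of all named genes. Without WT placebo 1 and 4 the median of striated muscle is -0.28, against -1.38 on all arrays, and that of smooth muscle is 0.03, against 0.34. Clock genes stand at 0.41 without them.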

How the data were processed

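The deposited values are log2 signals, 1 per probe set and array, which the authors made with GCRMA, per the submitters' processing notes. A second deposited file holds the authors' own limma results, log2 fold changes and p-values without adjustment. A limma fit of all probe sets differed from it by at most 4.7e-08 in log2 difference and 4.74e-08 in p-value, which also shows the scale and direction. Software versions of the authors are not given in the sources used here, and no column held a sample outside the series.

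Here limma 3.58.1 (R 4.3.3) served for a linear model with a mean for each of the 6 groups (22 arrays), with variances moderated by eBayes and two-sided tests. Affymetrix controls (64) were left out. Named genes are those with 1 symbol in the platform annotation (34958 probe sets, against 932 with several and 9211 with none), and a gene stands in lists by its probe set of highest mean. Text names follow a rule: called genes whose arrays separate the groups, by size; where too few qualified, the 5 with the smallest p in each direction; from each list up to 4 with the smallest p; and Esr1, Esr2, Pgr, Nos3, Myh11, Acta2, Pecam1, Ucp1, Adipoq and Acta1 always. The genes of chromosome 12 near Esr2, the unnamed probe sets and the genes called in other comparisons were added after their values were seen. The gene lists and comparisons were chosen with earlier results of these data known.

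The number of arrays limits the precision. The labels call each array a separate mouse. Labels give replicate numbers and no shared litter or day. Deviations from group means of same-numbered placebo and E2 arrays correlated with r of 0.246 to 0.661 in ERbKO (3 pairs) and 0.309 to 0.605 in WT (5 pairs), so that numbers were taken to pair arrays within a genotype. Alternatives were other filters, scalings, thresholds, variance models, array weights, replicate blocks, cell marker covariates and leaving out arrays. Figures were drawn with matplotlib 3.10.9 in Python 3.11.15.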

Additional observations from a re-analysis of the deposited data

Results flagged for a closer look

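In each group of 5 WT placebo arrays, an array whose gap to its nearest neighbour took up most of the group's range was marked by Dixon's test, which marks about 1 in 20 groups by chance. Among 132 sets of values tested (98 genes and 34 list means), 17 were marked. WT placebo 4 was the lowest array for Myh11 (12.19), Mcm6 (7.96), Actg2 (7.91) and Casq1 (6.68) and the highest for Nos3 (7.63). It was also the lowest array in the mean log2 value of the lists of extracellular matrix (9.17), vasoactive signalling (7.73), potassium and calcium channels (6.47), Wnt signalling (6.92) and the IGF axis (8.30).

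WT placebo 1 was the highest array for Acta1 (10.09) and in the means of the striated muscle (10.11), lymphocyte (5.02) and cell cycle (6.75) lists. WT placebo 3 was the highest for Mylk2 (4.02) and in the mean of the interferon-stimulated list (6.63), and the lowest in that of estrogen receptors and coregulators (8.03). Groups of 3 arrays were not tested in this way.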

How the results depend on the processing

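Between 0 and 5 probe sets were called in ERbKO against WT with placebo under any alternative run. The count was 0 with only the 8 arrays of the groups compared (507 probe sets at an unadjusted p under 0.05), with no filter (2021), at an adjusted p under 0.01 (620), with robust eBayes (605) and with replicate number as a fixed replicate block (708). With 1 probe set per named gene, which leaves out 1457231_at since it has no symbol, the count could only come from named genes and was 0 (329). It was also 0 without both WT placebo 1 and 4, an alternative chosen after seeing the data (400). It was 2 with a filter value of 6, at an adjusted p under 0.1, with a random replicate block, and with the brown adipocyte, white adipocyte or striated muscle list as covariate, and 5 with array weights. It was 1 after quantile normalisation, median centring and an intensity trend. Leaving out each array in turn gave 0 to 2. Over its alternatives 1457231_at lay between -2.85 and -2.32 and was called in 12 of 24, and 1444982_at was called in 8 of 24. Sntg2, Adi1, Colec11 and 1441181_at were called in 0 of theirs and kept their sign. Placebo arrays of ERbKO and WT with the same number had deviations that correlated with r of -0.334 to 0.365, and 1 of 3 correlated best with its own number, so the block between genotypes rests on numbers alone.

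ERbKO against WT with E2 gave 0 calls with only its arrays, with no filter and with the fixed replicate block, and 0 to 8 leaving out each array in turn. ERbKO against ERaKO gave 0 with only its arrays, 1 with no filter, 3 after quantile normalisation, 15 with the fixed replicate block, and 1 to 15 leaving out each array. The mean of the placebo and E2 differences, whose alternatives were chosen after seeing the data, gave 5 with only its arrays, with no filter and with the random replicate block, 3 with the fixed replicate block, and 5 to 10 leaving out each array. The test between the placebo and E2 comparisons gave 0 under all its alternatives, replicate blocks included. The cause of these changes was not tested.

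Of 2427 values of single genes under alternatives, 2380 kept their sign and side of the threshold, 12 passed it where they had not, 12 no longer passed it and 23 changed sign, each of them a difference that was not called. Pgr was 0.00638 after quantile normalisation, 0.0479 after median centring, 0.108 with the fixed replicate block, and -0.31 to 0.28 leaving out each array. With that block Pecam1 was -0.0227 and Dhcr7 0.0112. With the brown adipocyte covariate Ucp1 was 0.197, Adipoq 0.290, Mbp 0.0050, S100b 0.0488, Nsdhl 0.171, Alas2 -0.0190, Lpin1 0.0125 and Lpl 0.130. With the striated muscle covariate Acta2 was -0.00494 and Acta1 0.113. Leaving out each array, Adipoq ran from -0.72 to 0.0842, Slc4a1 from -0.0197 to 1.55, Alas2 from -0.274 to 0.88 and Lpl from -0.72 to 0.00732. Without WT placebo 1 and 4, Cd3e was 0.0485. Of 408 list medians, 5 moved by more than the spread of arrays, to 0.73 for clock genes (without WT placebo 3), -0.27 for estrogen-responsive genes (without WT placebo 4), -1.03 for macrophage genes (without ERbKO placebo 1), 0.56 for mesothelial genes (without ERbKO placebo 3) and -0.14 for receptors and coregulators (mean over probe sets of a gene).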

Other observations

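A few genes had a genotype difference with E2 and a smaller one with placebo, and they are named here after their values were seen. Myocd, the coactivator that drives contractile genes in smooth muscle, averaged 7.93 in ERbKO and 7.99 in WT with placebo, a log2 difference of -0.06, and differed by 1.71 with E2 (unadjusted p = 0.00948 in limma for the difference between the comparisons). Bmp2, a secreted BMP ligand, differed by -0.36 with placebo and by 0.65 with E2 (unadjusted p = 0.0234). Esam, an endothelial adhesion molecule, differed by 0.05 with placebo and by -0.50 with E2 (unadjusted p = 0.0216). None of these differences between comparisons was called, where 261 probe sets had an unadjusted p under 0.05.

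Zfp3 and Arhgap23, both on chromosome 11, shared a pattern with placebo in which ERbKO placebo 1 lay within the WT range and ERbKO placebo 2 and 3 above it. With E2 they differed by 0.11 and -0.22.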
